A study of Homo sapiens with 8 samples.

Results

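The G1 cyclins and CDK inhibitors are 10 genes taken by symbol from a count table of 61517 rows: CCND1, CCND2, CCND3, CCNE1, CCNE2, CCNG2, CDKN1A, CDKN1B, CDKN1C and CDKN2C. Of these, 9 passed the filter on low counts, as did 15554 rows in all, and CDKN1C was at 0 counts in each of the 8 libraries. The libraries are poly(A)-enriched RNA of KYSE150, an established line of human esophageal squamous cell carcinoma, kept in RPMI-1640 with added fetal bovine serum. There were 4 groups of 2 libraries: normoxia and hypoxia without drug, hypoxia with sodium oxamate (a lactate dehydrogenase inhibitor), and hypoxia with both oxamate and NALA. NALA was read as sodium lactate because the labels name that compound among the treatments, and the labels give no dose, duration or oxygen level. All groups are the same line, with no genetic change named in the labels, and there was no normoxia group with either compound. The title places the series in work on lactylation of HIF-1α and immune evasion in hypoxia.

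Progress of a cell from G1 into S phase is driven by cyclin-dependent kinases. The D cyclins activate CDK4 and CDK6, the E cyclins activate CDK2, and these kinases phosphorylate the retinoblastoma protein and its relatives, which releases E2F factors to transcribe genes of DNA synthesis. The CDKN1 proteins p21, p27 and p57 bind cyclin-CDK complexes, the INK4 protein p18 made by CDKN2C binds CDK4 and CDK6, and cyclin G2 is an unusual cyclin linked to cell cycle arrest.

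Library totals ran from 21845676 to 29406061 counts. Levels are CPM, counts set on a common library total, and scaled by TMM, a method that corrects for the makeup of each library, and a gene was called where edgeR's quasi-likelihood test gave a Benjamini-Hochberg adjusted p under 0.05 over all tested genes. Nothing in the labels states whether replicates were separate cultures, so p-values measure only how far the sequenced libraries differ, possibly for technical reasons. That spread was narrow, with a common biological coefficient of variation of 3.06%, though wider than counting error alone, with a replicate chi-square over its degrees of freedom of 1.84 to 2.09 in the first 3 groups and 4.78 with NALA. Of 10 squamous markers, all were detected in every library except SOX2, which was at 0 in both NALA libraries, and their sum was 2950 CPM for normoxia, 2650 to 2660 for hypoxia, 4990 to 5000 with oxamate and 3740 to 3760 with NALA. Of 6 leukocyte markers, 2 to 5 were above 0 and PTPRC was at 0 in 7 of 8 libraries, and their sum of 34.7 to 38.0 CPM in normoxia, 110 to 116 in hypoxia, 86.1 to 86.8 with oxamate and 98.5 to 101 with NALA came mostly from the lysosomal gene CD68, at 34.6 to 116 CPM. Of 7 fibroblast and endothelial markers, 3 or 4 were above 0, COL3A1 and DCN were at 0 throughout, and the sum was 3.72 to 3.73 CPM in normoxia, 9.61 to 10.0 in hypoxia, 1.51 to 2.59 with oxamate and 1.47 to 1.67 with NALA; the part of these sums in the results was not tested. In bulk RNA, fewer cells in a phase or state and less RNA per cell cannot be told apart.

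In hypoxia the drivers and the brakes of G1 differed from normoxia in opposite directions. The 3 D cyclins and both E cyclins were lower than in normoxia, and CCNG2 and the inhibitors CDKN1A, CDKN1B and CDKN2C were higher. All 9 tested members were called, 4 higher and 5 lower, in a comparison where 73.5% of all genes were called, 36.7% higher and 36.8% lower. A count of calls therefore says little about the members. By size, 7 of the 9 were called with more than a 2-fold difference, against 28.7% of all genes. The members were chosen with earlier results of these data known, so this share and the like shares below describe them and do not test them.

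With oxamate in hypoxia, against hypoxia alone, CCND1, CCND3 and CCNE1 were higher, and CCND2, CCNE2, CCNG2, CDKN1A, CDKN1B and CDKN2C were lower. That is 3 higher and 6 lower of 9, where 80.5% of all genes were called, 35.7% higher and 44.8% lower, and all 9 differed by more than 2-fold, against 41.8% of all genes. With NALA added, against oxamate alone, CCNG2, CDKN1A, CDKN1B, CCND2 and CDKN2C were higher and CCND1 and CCNE1 were lower. These 7 of 9 calls, 5 higher and 2 lower, stand beside 64.9% of all genes, 33.2% higher and 31.7% lower; 5 members passed 2-fold, against 19.2% of all genes. Under upper quartile scaling in place of TMM the split of all genes was 4150 higher and 6340 lower, against 5160 and 4927. The calls for CCND2 and CDKN2C, both under 1.3-fold, depended on the scaling, as described with those genes.

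The remaining comparisons place the groups in order. With oxamate and NALA against hypoxia, 6 of 9 members were called, 2 higher and 4 lower, where 78.6% of all genes were called, 38.5% higher and 40.2% lower, a split of 5981 and 6246 that became 4683 and 7693 under upper quartile scaling. With oxamate against normoxia, 7 members were called, 1 higher and 6 lower, beside 72.0% of all genes, 31.9% higher and 40.1% lower. With oxamate and NALA against normoxia, 8 were called, 3 higher and 5 lower, beside 72.7% of all genes, 35.9% higher and 36.8% lower. Comparisons that share a group share its libraries, so their values are given side by side and not as separate evidence.

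**Figure D1:**
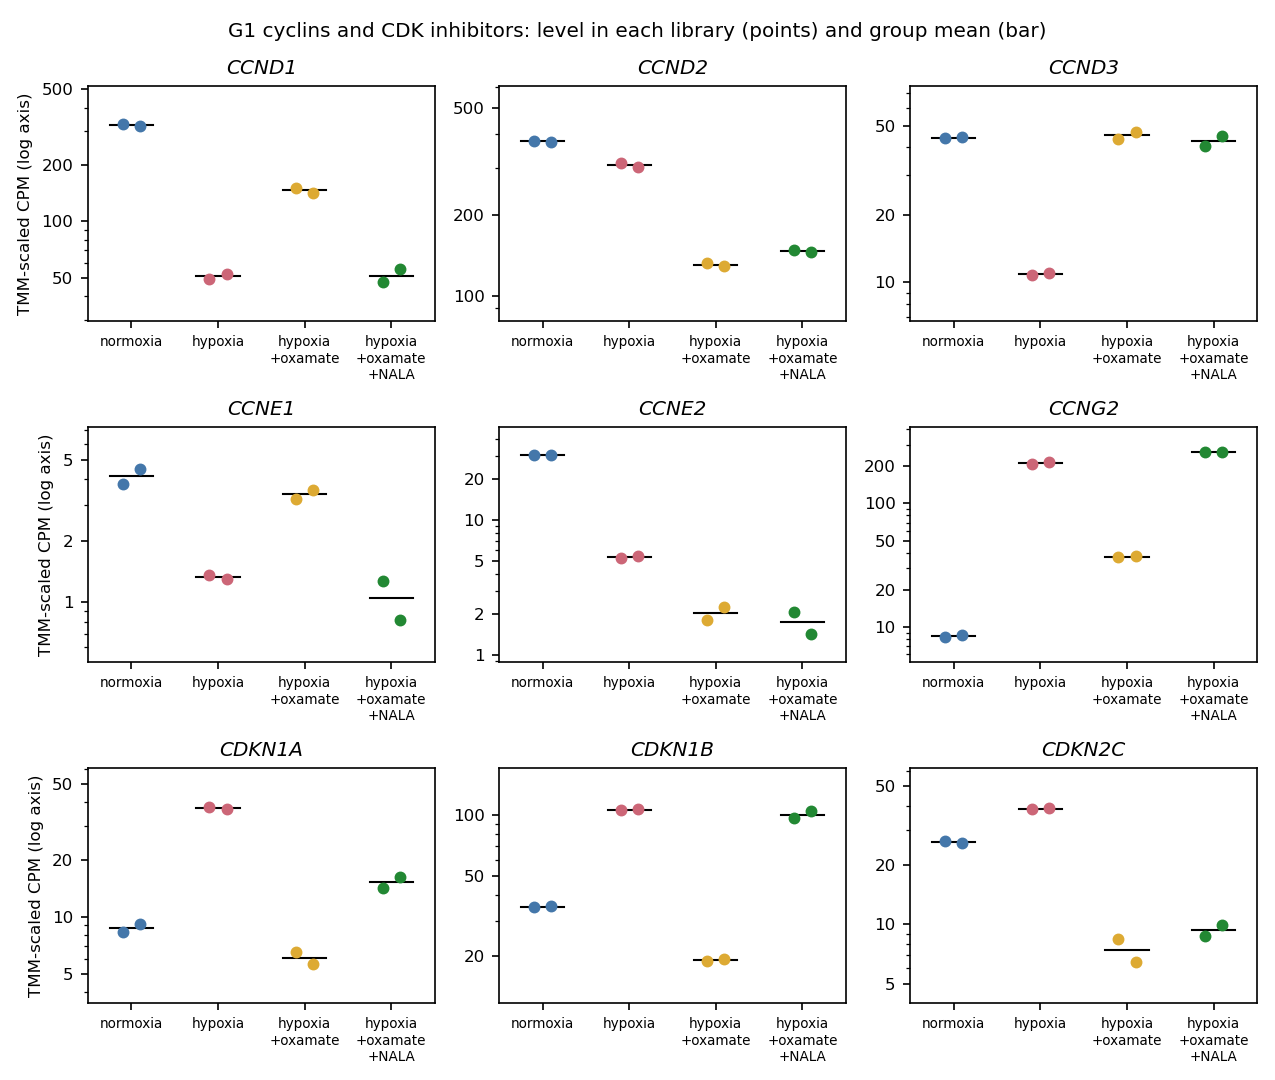
TMM-scaled CPM (log axis, 1 panel per gene) of the 9 members that passed the filter, in each of 2 libraries per group (points) with the group mean (bar). CCNG2 runs from 8.48 CPM in normoxia to 260 with oxamate and NALA, while CCND3 is low in hypoxia alone, at 10.9 CPM.

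CCND1 encodes cyclin D1, the D cyclin most often amplified in squamous carcinomas, and lies on chromosome 11 from 69641087 to 69654474 on the plus strand of GRCh38 (ENSG00000110092). Its level was 326 and 321 CPM in the normoxia libraries, 49.4 and 52.7 in hypoxia, 150 and 142 under oxamate and 47.5 and 55.6 with oxamate and NALA. Normoxia was highest and oxamate second, and the hypoxia and NALA libraries overlapped. The log2 fold change was -2.66 ± 0.053 (SE) in hypoxia against normoxia, a 6.34-fold lower level (adjusted p = 5.61e-17). The SE and interval of each fold change were worked back from its test statistic, with a limit given under the processing. It was 1.51 ± 0.055 with oxamate against hypoxia (adjusted p = 1.07e-13) and -1.49 ± 0.057 with NALA added to oxamate (adjusted p = 4.73e-13). With oxamate, CCND1 reached 2.85 times its hypoxia level and was still 2.22-fold below normoxia. With oxamate and NALA against hypoxia the difference was 0.02 (95% interval -0.11 to 0.15, adjusted p = 0.768), a value that was -0.24 and called under upper quartile scaling and 0.12 and called without the first NALA library. CCND1 shares 10.3% of its exon bases with LTO1 on the opposite strand, whose counts averaged 10.3% of those of CCND1, and strand was not stated for the counting.

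CCND2, encoding cyclin D2, followed a different course. It lies on chromosome 12 from 4273772 to 4305350 on the plus strand (ENSG00000118971). Its level was 378 and 375 CPM in normoxia, 312 and 301 in hypoxia, 132 and 129 under oxamate and 148 and 146 with oxamate and NALA. The groups did not overlap, and the widest gap between neighbours in the order lay between hypoxia and the NALA group. The decrease in hypoxia was the smallest of the 5 cyclins that fell, at -0.30 ± 0.031 log2 units or 1.23-fold (adjusted p = 1.68e-08). With oxamate against hypoxia the log2 fold change was -1.23 ± 0.033, or 2.35-fold lower (adjusted p = 4.78e-19), where the D cyclins CCND1 and CCND3 were higher. With NALA added the difference was 0.17 ± 0.035 (adjusted p = 0.000189), a call that was lost under upper quartile scaling (-0.02), with the stricter count filter (0.05) and without the first or second oxamate library (0.09 and 0.06) or the second NALA library (0.07). CCND2 with oxamate and NALA was 2.09-fold below hypoxia and 2.56-fold below normoxia. AC008012.1, a protein-coding gene with a clone-based name on the same strand, shares 13.8% of the CCND2 exon bases and had 6.12% of its level.

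CCND3, encoding cyclin D3, was low in hypoxia alone. It lies on chromosome 6 from 41934933 to 42050357 on the minus strand (ENSG00000112576). Its level was 43.9 and 44.7 CPM in normoxia, 10.8 and 11.0 in hypoxia, 43.7 and 47.0 under oxamate and 40.7 and 45.1 with oxamate and NALA. Hypoxia stood apart from the other 3 groups, which overlapped each other. The log2 fold change was -2.02 ± 0.072 in hypoxia against normoxia (4.07-fold lower, adjusted p = 1e-16) and 2.06 ± 0.073 with oxamate against hypoxia (4.16-fold higher, adjusted p = 4.91e-17). With oxamate and NALA it remained above hypoxia by 1.98 ± 0.074 (adjusted p = 1.96e-16). Against oxamate alone the NALA group differed by -0.08 (95% interval -0.20 to 0.05, adjusted p = 0.286). That value was called lower under upper quartile scaling (-0.27), with the stricter filter (-0.19) and without the first oxamate or second NALA library (-0.23 and -0.27). Oxamate differed from normoxia by 0.03 (interval -0.09 to 0.16, adjusted p = 0.617), called higher at 0.18 without the first oxamate library and at 0.12 (adjusted p = 0.0494) in a fit of those groups alone. Oxamate with NALA differed from normoxia by -0.04 (interval -0.17 to 0.08, adjusted p = 0.542), called lower at -0.20 (adjusted p = 0.00573) under upper quartile scaling.

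Dividing CPM by the length of the merged exons in kilobases (kb) lets levels of different genes be compared. On this scale the 3 D cyclins summed to 128 ± 0.707 CPM per kb (SD, n = 2) in normoxia, 55.2 ± 0.566 in hypoxia, 56.2 ± 1.13 with oxamate and 38.6 ± 1.56 with oxamate and NALA. The hypoxia and oxamate libraries overlapped in this sum, and their makeup was far apart. CCND1 held 52.7% of the sum in normoxia, 19.1% in hypoxia, 53.7% with oxamate and 27.6% with NALA. CCND2 held 41.3%, 77.5%, 32.4% and 53.2% in the same order, and was the most abundant D cyclin in hypoxia and with NALA. CCND3 held 6.0%, 3.4%, 13.9% and 19.1%, shares that came to 12.2%, 7.14%, 26.0% and 34.1% when the longest annotated transcript was used as the length, so the size of its share depends on the length chosen while CCND2 led in hypoxia and with NALA either way.

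**Figure D2:**
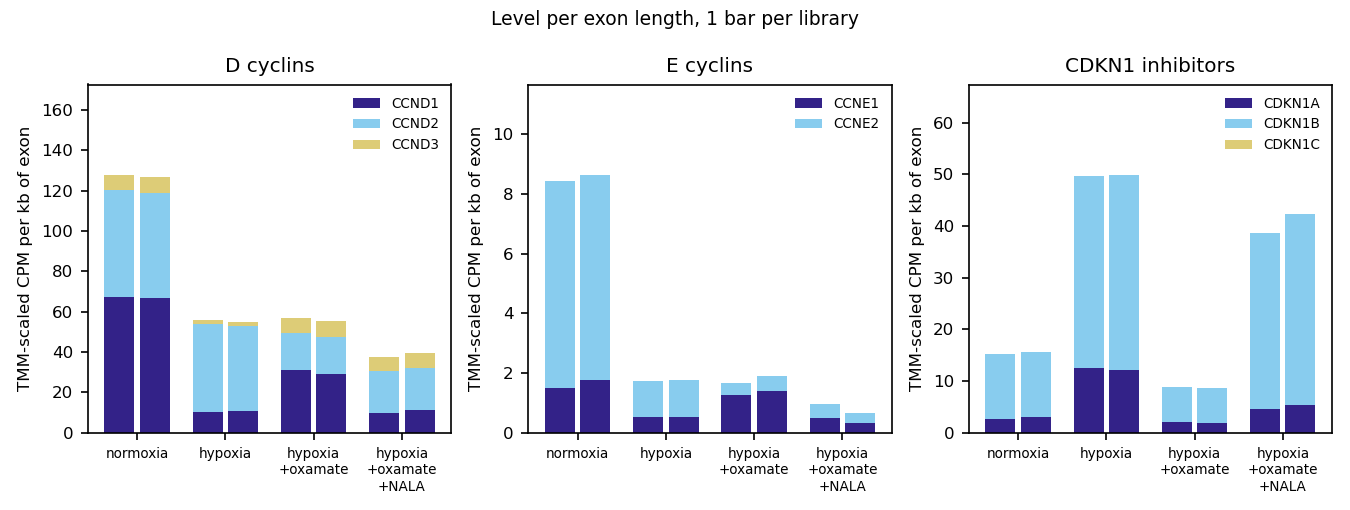
TMM-scaled CPM per kb of exon (vertical axis) in each library (1 bar each, 2 per group), stacked by gene, for the D cyclins, the E cyclins and the CDKN1 inhibitors. The D cyclin sum was 55.2 in hypoxia and 56.2 with oxamate, made up mainly of CCND2 in hypoxia (77.5%) and of CCND1 with oxamate (53.7%), and the CDKN1 sum was highest in hypoxia, at 49.8.

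CCNE1 and CCNE2 encode cyclins E1 and E2, which act with CDK2 at the entry into S phase. CCNE1 lies on chromosome 19 from 29811898 to 29824308 on the plus strand (ENSG00000105173), and CCNE2 on chromosome 8 from 94879770 to 94896678 on the minus strand (ENSG00000175305). CCNE1 was weakly expressed, with 3.79 and 4.52 CPM in normoxia (102 and 143 counts), 1.36 and 1.3 in hypoxia (40 and 37 counts), 3.21 and 3.56 under oxamate (83 and 88 counts) and 1.27 and 0.815 with oxamate and NALA (25 and 20 counts). Normoxia and oxamate formed a high pair of groups and hypoxia and NALA a low pair. CCNE1 was 3.13-fold lower in hypoxia than in normoxia (log2 fold change -1.64 ± 0.230, adjusted p = 1.25e-06). It was 2.54-fold higher with oxamate than in hypoxia (1.34 ± 0.237, adjusted p = 2.26e-05) and 3.29-fold lower with NALA added (-1.72 ± 0.259, adjusted p = 4.18e-06). Within the pairs, oxamate against normoxia gave -0.30 (95% interval -0.73 to 0.13, adjusted p = 0.204) and oxamate with NALA against hypoxia gave -0.37 (interval -0.97 to 0.22, adjusted p = 0.236), the latter called lower under upper quartile scaling (-0.63).

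CCNE2 fell in hypoxia and again with oxamate. It was at 30.5 and 30.2 CPM in normoxia, 5.23 and 5.46 in hypoxia, 1.82 and 2.27 under oxamate and 2.08 and 1.43 with oxamate and NALA, the last being 41 and 35 counts. Normoxia and hypoxia stood apart from each other and from the rest, and the oxamate and NALA libraries overlapped. The log2 fold change was -2.51 ± 0.106 in hypoxia against normoxia (5.68-fold lower, adjusted p = 2.03e-15) and -1.39 ± 0.159 with oxamate against hypoxia (2.62-fold lower, adjusted p = 5.29e-08). With NALA added it was -0.24 (95% interval -0.68 to 0.20, adjusted p = 0.328). CCNE2 shares 1629 exon bases, 37.0% of its length, with INTS8, a subunit gene of the Integrator complex on the opposite strand whose counts averaged 389% of those of CCNE2. INTS8 itself was at 52.1 and 51.2 CPM in normoxia, 44.9 and 45.7 in hypoxia, 36.2 and 35.0 under oxamate and 21.1 and 20.9 with NALA. With strand not stated, reads of the shared stretch cannot be assigned, and the low CCNE2 levels in the oxamate and NALA groups are uncertain. Per kb of exon, CCNE1 made up 19.1% of the E cyclin sum in normoxia, 30.0% in hypoxia, 74.2% with oxamate and 50.4% with NALA, as the sum went from 8.54 to 1.73, 1.79 and 0.808 CPM per kb.

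The 4 members that were higher in hypoxia are shown with the 250 bases before their RefSeq start on GRCh38.p14, to set their levels beside the letters to which HIF dimers are known to bind. Capitals mark the core of that element, ACGTG or GCGTG on either strand, together with the full E-box CACGTG where the core lies inside one. RefSeq start windows were at hand for 6 of the 10 members: CCND3, CCNE1, CCNG2, CDKN1A, CDKN1B and CDKN2C. Each gene was searched only at the first start listed for it, and any other starts were not searched. Some of these starts, such as those of CDKN1A and CDKN1B, lie inside the gene positions given below.
CCNG2, chr4:77156957-77157206, plus strand: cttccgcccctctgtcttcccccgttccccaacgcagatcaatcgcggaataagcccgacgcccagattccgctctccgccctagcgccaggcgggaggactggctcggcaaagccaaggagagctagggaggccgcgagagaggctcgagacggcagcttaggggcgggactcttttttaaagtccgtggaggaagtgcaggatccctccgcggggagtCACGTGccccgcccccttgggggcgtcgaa
CDKN1A, chr6:36678464-36678713, plus strand: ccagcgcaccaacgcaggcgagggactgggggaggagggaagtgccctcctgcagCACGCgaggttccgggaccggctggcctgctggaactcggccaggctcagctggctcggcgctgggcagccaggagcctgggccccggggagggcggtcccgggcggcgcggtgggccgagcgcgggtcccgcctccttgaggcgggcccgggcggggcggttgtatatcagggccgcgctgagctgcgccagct
CDKN1B, chr12:12717118-12717367, plus strand: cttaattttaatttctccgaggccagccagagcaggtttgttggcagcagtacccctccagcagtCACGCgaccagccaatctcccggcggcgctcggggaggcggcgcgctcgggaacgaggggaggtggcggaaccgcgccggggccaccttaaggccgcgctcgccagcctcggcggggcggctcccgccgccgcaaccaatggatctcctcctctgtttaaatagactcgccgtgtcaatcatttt
CDKN2C, chr1:50960495-50960744, plus strand: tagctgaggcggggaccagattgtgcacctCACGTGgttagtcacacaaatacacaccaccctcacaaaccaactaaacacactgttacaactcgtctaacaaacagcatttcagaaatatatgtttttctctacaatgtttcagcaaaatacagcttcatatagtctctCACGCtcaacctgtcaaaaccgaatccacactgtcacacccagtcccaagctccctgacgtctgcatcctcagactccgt
CCNG2 held a CACGTG whose first base lies 30 bases before the start, and CDKN2C held a CACGTG at 220 bases and a further core at 80 bases before it. CDKN1A and CDKN1B each held 1 core, at 195 and 185 bases. The core is common: 43.1% of all 27305 promoters of this length held it and 6.49% held CACGTG. Of the members that fell in hypoxia, CCND3 also held a core, at 197 bases, and CCNE1 held none. Searched the same way on both strands, the E2F letters TTGGCGC or TTCCCGC (7.95% of promoters) and the FOXO letters TGTTTAC (2.98%) matched in none of the 6 windows, the GC box GGGCGG (42.3%) matched in all of these but that of CDKN2C, and CCAAT (33.0%) matched in that of CDKN1B. These matches describe letters in a short window and not sites in use.

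CCNG2 encodes cyclin G2, and in the annotation its gene runs on chromosome 4 from 77157151 to 77433388 on the plus strand (ENSG00000138764). It was at 8.37 and 8.60 CPM in normoxia, 208 and 215 in hypoxia, 36.9 and 37.3 under oxamate and 260 and 259 with oxamate and NALA. The 4 groups were well apart, and the ratio of the highest to the lowest group mean, 30.4, was the widest of the 9 members. CCNG2 was 24.9-fold higher in hypoxia than in normoxia (log2 fold change 4.64 ± 0.051, adjusted p = 1.44e-25). It was 5.69-fold lower with oxamate than in hypoxia (-2.51 ± 0.041, adjusted p = 1.19e-22), which left it 4.37-fold above normoxia (2.13 ± 0.062, adjusted p = 3.95e-18). With NALA added it was 7.00-fold higher than with oxamate alone (2.81 ± 0.041, adjusted p = 1.25e-22). Its level with NALA exceeded that in hypoxia by 0.30 ± 0.034 (adjusted p = 6.63e-08), and this call was lost under upper quartile scaling (0.04). CCNG2 had 497 counts over both normoxia libraries. Counting error alone is then larger than the ± of 0.051 and 0.062 against normoxia, so these are too narrow.

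The tested genes whose course over the 8 libraries was most like that of CCNG2 were found by the root mean square difference of log2 CPM, centred on each gene's mean, among 11073 genes. DDIT4, encoding an inhibitor of mTORC1, differed by 0.195, HK2, encoding hexokinase 2, by 0.530 and KDM3A, encoding a histone demethylase, by 0.531, where the median over all genes was 2.06. DDIT4 stood at 64.9, 1830, 244 and 1590 CPM in normoxia, hypoxia, oxamate and NALA, and shares 41.2% of its exon bases with an antisense gene. For CCND1 the genes of near course included the pseudogenes FAM86DP at 0.171 and OGFRP1 at 0.204 (median 1.21), and the counts of both pseudogenes are uncertain because of similar copies. For CCNE2 the nearest were the mitochondrial genes MT-CO3 (0.206) and MT-ND3 (0.241) and PIGW (0.262), a gene of GPI anchor synthesis, against a median of 1.70. MT-CO3 went from 4640 to 935, 399 and 265 CPM and MT-ND3 from 562 to 128, 37.9 and 29.5, lower in each group mean than in the one before. PIGW shares 20.8% of its exon bases with MYO19, whose counts were 680% of its own.

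CDKN1A encodes p21, an inhibitor of CDK2 complexes and a target of p53, and lies on chromosome 6 from 36676460 to 36687339 on the plus strand (ENSG00000124762). Its level was 8.30 and 9.10 CPM in normoxia, 38.0 and 37.1 in hypoxia, 6.5 and 5.62 under oxamate and 14.1 and 16.2 with oxamate and NALA. No groups overlapped, and the NALA libraries lay between hypoxia and normoxia. The log2 fold change was 2.11 ± 0.087 in hypoxia against normoxia (4.30-fold higher, adjusted p = 1.52e-15) and -2.63 ± 0.095 with oxamate against hypoxia (6.18-fold lower, adjusted p = 7.71e-17). NALA added to oxamate gave 1.33 ± 0.108 (2.51-fold higher, adjusted p = 3.27e-10), and the level was then still 2.47-fold below hypoxia (-1.3 ± 0.084, adjusted p = 3.12e-12). With oxamate CDKN1A was below normoxia by -0.52 ± 0.114 log2 units (adjusted p = 0.000304).

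CDKN1B encodes p27, which restrains cyclin E-CDK2 in resting cells, and lies on chromosome 12 from 12715058 to 12722371 on the plus strand (ENSG00000111276). Its level was 35.0 and 35.3 CPM in normoxia, 105 and 106 in hypoxia, 18.9 and 19.3 under oxamate and 95.8 and 104 with oxamate and NALA. Hypoxia and NALA were high and close to each other, and oxamate was the lowest group. CDKN1B was 2.99-fold higher in hypoxia than in normoxia (log2 fold change 1.58 ± 0.048, adjusted p = 8e-18), 5.52-fold lower with oxamate than in hypoxia (-2.46 ± 0.055, adjusted p = 1.51e-20) and 5.24-fold higher with NALA added (2.39 ± 0.056, adjusted p = 1.49e-19). With oxamate and NALA against hypoxia the difference was -0.07 (95% interval -0.17 to 0.02, adjusted p = 0.128), called lower under upper quartile scaling (-0.33), with the stricter filter (-0.16) and without the second NALA library (-0.14). The CDKN1B level with oxamate was 1.85-fold below normoxia (-0.88 ± 0.062, adjusted p = 1.46e-11).

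CDKN1C, encoding p57, lies on chromosome 11 from 2883213 to 2885773 on the minus strand (ENSG00000129757). At 0 counts in every library, its level could have been up to 0.0948 to 0.153 CPM per library, the level of 3 counts, a limit that covers counting error only. The CDKN1 sum per kb of exon therefore came from CDKN1A and CDKN1B, and was 15.4 ± 0.283 CPM per kb (SD, n = 2) in normoxia, 49.8 ± 0.212 in hypoxia, 8.78 ± 0.0919 with oxamate and 40.5 ± 2.47 with oxamate and NALA. CDKN1B made up 81.5%, 75.3%, 77.4% and 87.7% of it, the largest share in all 4 groups.

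CDKN2C encodes p18, an INK4 inhibitor of CDK4 and CDK6, and lies on chromosome 1 from 50960745 to 50974633 on the plus strand (ENSG00000123080). Its level was 26.6 and 25.7 CPM in normoxia, 38.5 and 38.7 in hypoxia, 8.40 and 6.43 under oxamate and 8.79 and 9.94 with oxamate and NALA. Hypoxia was highest and normoxia second, and the oxamate and NALA libraries were low, adjacent and not overlapping. CDKN2C was 1.47-fold higher in hypoxia than in normoxia (log2 fold change 0.56 ± 0.076, adjusted p = 7.64e-07) and 5.19-fold lower with oxamate than in hypoxia (-2.38 ± 0.093, adjusted p = 3.42e-16). NALA added to oxamate gave 0.34 ± 0.118 (adjusted p = 0.015), which was not called under upper quartile scaling (0.15), with the stricter filter (0.22), by DESeq2 (0.28) or without the second oxamate or second NALA library (0.07 and 0.13). With oxamate and NALA CDKN2C was 4.10-fold below hypoxia (-2.03 ± 0.092, adjusted p = 5.69e-15).

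Side by side, the members differed in how near the NALA group came to hypoxia. For CCND1, CCNE1 and CDKN1B the NALA group was not told apart from hypoxia, with the exceptions by scaling, filter and library given above. CCNG2 was 1.23-fold above hypoxia and CDKN1A 2.47-fold below it. CCND2, CCNE2 and CDKN2C remained 2.09-fold, 3.09-fold and 4.10-fold below hypoxia, and CCND3 remained 3.95-fold above it. The 2 D cyclins that were higher with oxamate thus parted when NALA was added, CCND1 falling 2.81-fold and CCND3 at 42.9 ± 3.11 CPM (SD, n = 2) against 45.4 ± 2.28.

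**Figure D3:**
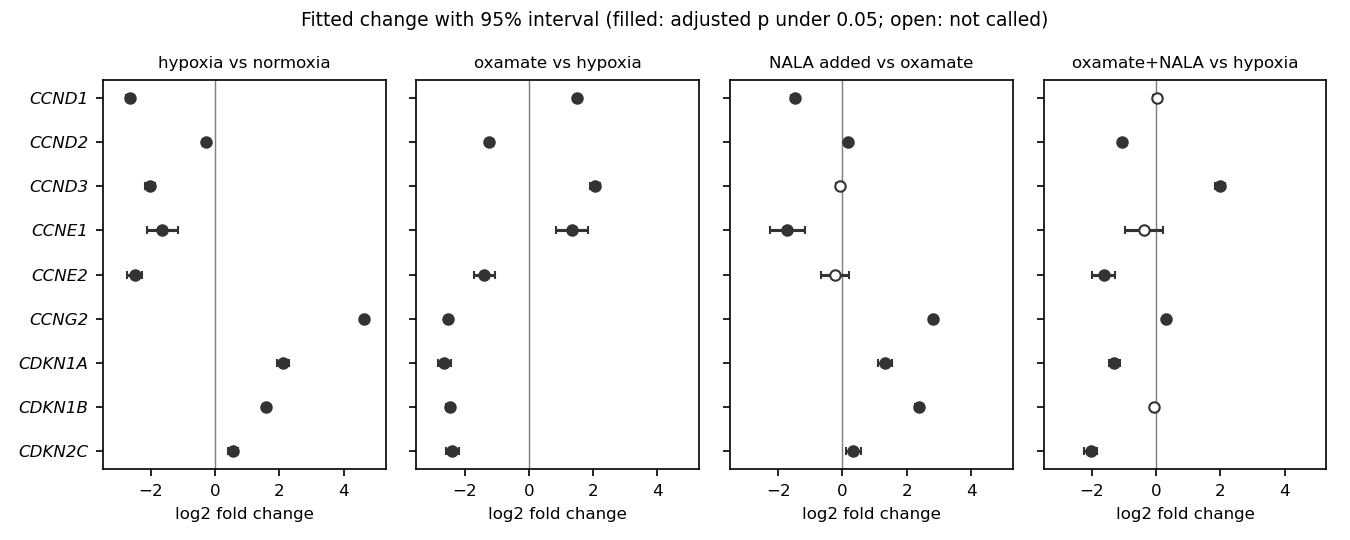
Fitted log2 fold change (horizontal axis) with 95% interval of each tested member in 4 comparisons, filled where the adjusted p was under 0.05 and open where not. The intervals were worked back from the test statistic and can be too narrow where a group has few counts. CCND1 (0.02), CCNE1 (-0.37) and CDKN1B (-0.07) are open for oxamate and NALA against hypoxia, while CCND3 (1.98) and CDKN2C (-2.03) lie far from 0 on opposite sides.

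The other genes of the pathway were counted by list, leaving out the members. Over all tested genes, the counts to read these lists against are 36.7% higher and 36.8% lower in hypoxia, 35.7% and 44.8% under oxamate and 33.2% and 31.7% with NALA added, with medians of 0.02, -0.20 and -0.02, so calls in both directions are usual for any list. Of 18 genes driven by E2F at the entry into S phase, 3 were higher and 15 lower in hypoxia against normoxia (median log2 fold change -0.87, against 0.02 over all genes), 17 were higher and 0 lower with oxamate (1.10, against -0.20), and 0 were higher and 18 lower with NALA added (-0.98, against -0.02). MCM4, a subunit of the replicative helicase, was at 511 ± 10.5 CPM in normoxia, 276 ± 1.94 in hypoxia, 872 ± 3.33 with oxamate and 491 ± 3.41 with NALA (SD, n = 2). UHRF1, which maintains DNA methylation at replication, was at 161, 46.6, 105 and 34.5 CPM in the same order. MCM4 with oxamate was 1.71-fold above normoxia, whereas UHRF1 was 1.54-fold below it.

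Genes that act on the same kinases were called in both directions, as all tested genes were. Of 9 G1 kinases and activators, 2 were higher and 6 lower in hypoxia, 6 higher and 2 lower with oxamate, and 3 higher and 6 lower with NALA added (medians -0.21, 0.37 and -0.35). CDC25A, the phosphatase that activates CDK2, was at 54.6 and 59.0 CPM in normoxia and 6.07 and 5.14 in hypoxia, a 10.1-fold lower level (log2 fold change -3.34 ± 0.092), and rose 1.29-fold with oxamate. CDC37, the chaperone partner that loads CDK4 onto HSP90, was 1.71-fold lower in hypoxia and 3.31-fold higher with oxamate. Of the other INK4 genes and CDKN3, 4 in all, 2 were higher and 0 lower in hypoxia, 2 and 2 under oxamate, and 2 and 1 with NALA. CDKN2D, encoding p19 of the INK4 family, was 2.12-fold higher in hypoxia and 3.21-fold lower with oxamate, and CDKN3, a phosphatase that acts on CDK2, was 1.70-fold higher with oxamate.

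Downstream of the kinases, 13 genes of the RB family, E2F and DP factors had 3 higher and 8 lower in hypoxia, 5 higher and 7 lower with oxamate and 5 higher and 7 lower with NALA added (medians -0.97, -0.16 and -0.42). RBL2, encoding the pocket protein p130 of resting cells, was 2.64-fold higher in hypoxia and 2.71-fold lower with oxamate, and with NALA added it was lower by a further 1.37-fold; it shares 8.33% of its exon bases with AKTIP, at 28.4% of its level. The 7 genes of the MuvB complex with MYBL2 and FOXM1 had 2 higher and 4 lower, 3 higher and 1 lower, and 3 higher and 4 lower in those comparisons (medians -0.43, 0.18 and -0.39). FOXM1, a transcription factor of G2 and mitosis genes, went from 233 to 150, 450 and 289 CPM, and shares 15.9% of its exon bases with ITFG2, at 12.0% of its level. Of the cyclins of S, G2 and M phase with CDK1, 5 genes, 1 was higher and 3 lower in hypoxia, 2 and 2 under oxamate and 0 and 5 with NALA (medians -0.20, 0.07 and -0.34), and CCNF, encoding cyclin F, fell 3.34-fold with oxamate. Of 15 mitosis genes, 4 were higher and 6 lower in hypoxia, 8 and 5 under oxamate and 3 and 12 with NALA (medians 0.02, 0.18 and -0.47), with 8 higher and 5 lower in hypoxia under upper quartile scaling, among them CDC20, an activator of the anaphase-promoting complex, at 248, 144, 350 and 276 CPM. Of 10 cyclins outside the cell cycle core, 4 were higher and 2 lower in hypoxia, 1 and 6 under oxamate and 8 and 2 with NALA (medians 0.04, -0.36 and 0.69), with CCNI 2.35-fold higher in hypoxia and CCNY 3.36-fold lower with oxamate.

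Of genes that act on the stability or the transcription of the members, 13 of 17 and 19 of 23 were called in hypoxia, beside 73.5% of all genes. Of 17 genes of G1 cyclin and CDK inhibitor turnover, 4 were higher and 9 lower in hypoxia, 12 and 5 under oxamate and 8 and 6 with NALA added (medians -0.37, 0.36 and 0.02). CUL3, a ubiquitin ligase scaffold with cyclin E among its substrates, was at 105 ± 5.06 CPM in normoxia, 62.0 ± 0.131 in hypoxia, 7.85 ± 0.0073 with oxamate and 51.9 ± 0.239 with NALA (SD, n = 2), 7.89-fold lower with oxamate than in hypoxia. An SD of 2 libraries can fall below counting error, as in hypoxia, with oxamate and with NALA here. Such an SD does not give the precision of the level. Of 23 transcription factors with known roles at the member genes, 15 were higher and 4 lower in hypoxia, 11 and 11 under oxamate and 18 and 3 with NALA (medians 0.69, -0.01 and 0.77). JUN, an AP-1 subunit known to activate CCND1, was at 49.4 and 50.7 CPM in normoxia and 29.8 and 28.5 in hypoxia. Against hypoxia, it was 11.0-fold higher with oxamate and 6.28-fold higher with oxamate and NALA. BHLHE40, a repressor that binds E-boxes, was 19.0-fold higher in hypoxia than in normoxia and 1.15-fold higher with oxamate than in hypoxia. With oxamate and NALA it was 2.12-fold above oxamate alone and 2.43-fold above hypoxia. The part of either factor in the levels of the members was not tested. Of 19 p53 targets, 10 were higher and 9 lower in hypoxia, 4 and 12 under oxamate and 13 and 5 with NALA (medians 0.31, -0.68 and 0.83). AEN, a nuclease gene named for the smallest p in that list, was 17.7-fold lower in hypoxia. It was 11.6-fold higher with oxamate than in hypoxia and 2.36-fold higher with NALA added. In hypoxia and with oxamate AEN thus went against the median of its list. The part of p53 in the level of CDKN1A was not tested. Other scalings turned the sign of the list median for turnover genes with NALA added (-0.17 by upper quartile, -0.03 by RLE size factors), for the INK4 genes and CDKN3 with NALA added (0.14, and -0.05 by upper quartile) and for the transcription factors with oxamate (0.07 by RLE).

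**Figure D4:**
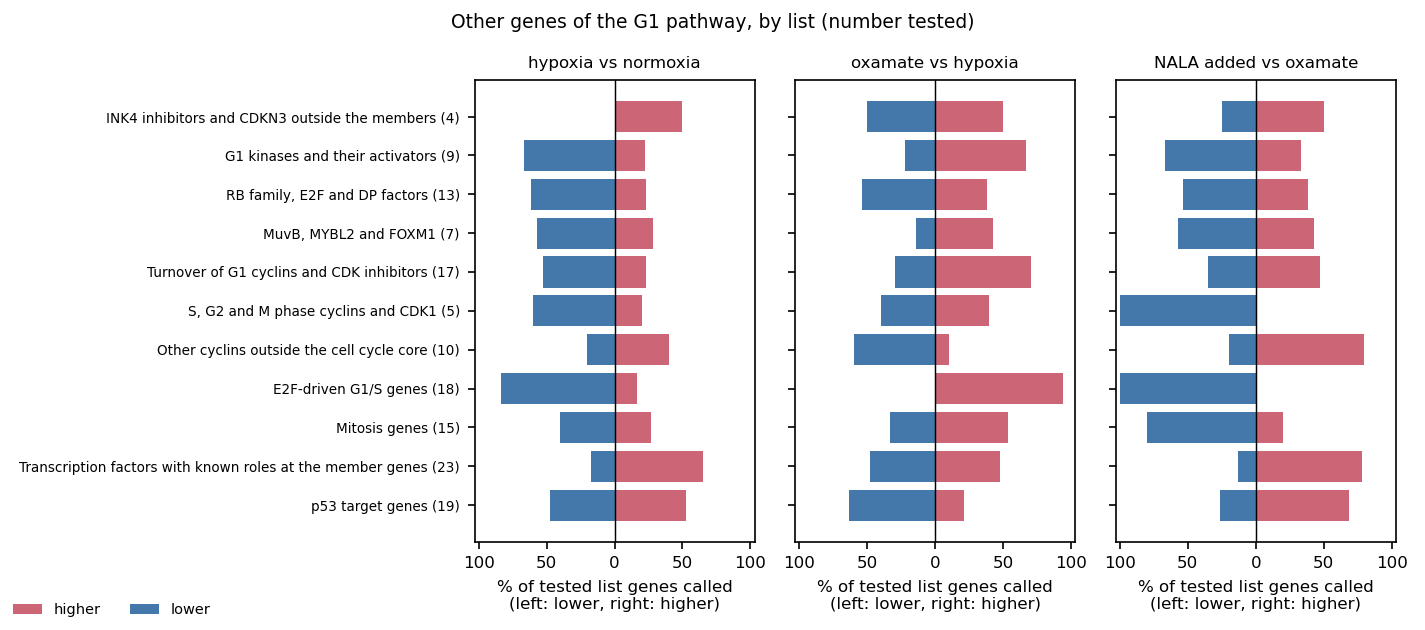
Percent of the tested genes of each list called higher (right) or lower (left), in 3 comparisons, with the number tested in brackets. The E2F-driven genes lie to the left in hypoxia (15 of 18 lower), to the right with oxamate (17 of 18 higher) and to the left with NALA added (18 of 18 lower).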

How the data were processed

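The gene table deposited by the authors holds raw counts without normalization, whole numbers that may be rounded RSEM estimates. The submitters' processing notes list hg38, GRCh38, FastQC 0.11.9, STAR 2.7.8a and RSEM 1.3.3 with no role. Strandedness and the annotation release used for counting are not stated there.

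In R 4.3.3, edgeR 4.0.16 kept genes by filterByExpr with a minimum count of 10, scaled libraries by TMM (factors 0.879 to 1.15, alike within a group) and fitted one robust quasi-likelihood model of the 4 groups, leaving 4 residual degrees of freedom. The 6 pairwise comparisons were two-sided, with Benjamini-Hochberg adjustment over 15554 genes. TMM assumes that most genes do not differ, and 64.9% or more were called here, so changes are relative to that scale. The SE of a log2 fold change is its size over the square root of the quasi-likelihood F statistic. It is not a standard error from the fit, and the intervals rest on it. Where a group has few counts, both can be narrower than counting error alone allows, for small changes as well as large ones. Positions and exon lengths come from GENCODE release 29 (98.0% of tested identifiers matched) and start windows from RefSeq. The method was tested on simulated data in which few genes were changed, so that test does not cover the scaling where most genes are called.

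The members and lists were chosen with earlier results of these data known. Beside the members, the genes named were, in each list, the gene with the smallest p in hypoxia against normoxia and with oxamate against hypoxia, and the 3 genes of nearest course for the 3 members of widest range, with log2 CPM (prior count 2) of at least 1 on average. Of the genes this rule names, 1 is not reported here. INTS8 and other genes sharing exons were added for that reason. Alternatives were RLE and upper quartile size factors (for the lists, added after the data were seen), no filter, a stricter filter (50 counts in 2 libraries), DESeq2 1.42.0, a fit of the compared groups alone, the replicate number as a block and leaving out each library.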

Additional observations from a re-analysis of the deposited data

How the results depend on the processing

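The count of members called and the count of all genes called stayed within 1.5 times of the reported count under every alternative run. Of the members' log2 fold changes under alternatives, 565 kept direction and side of the threshold, 12 kept direction and passed newly, 10 kept direction and no longer passed, and 7 turned direction or came to 0.00; the cause was not tested. Under upper quartile scaling, which moved the median of all genes by -0.191 with NALA added to oxamate and by -0.258 with oxamate and NALA against hypoxia, CCND2 turned to -0.02 in the former and no longer passed, and CCND1 turned to -0.24 in the latter and passed newly. With the stricter filter, CCND1 in the latter comparison was -0.06. Without any filter, CCND3 with oxamate against normoxia was 0.00. Leaving out 1 library at a time gave CCND1 with oxamate and NALA against hypoxia between -0.11 and 0.12, and CCND3 with oxamate and NALA against normoxia between -0.13 and 0.03. With 1 library left in a group, that library is assumed to vary like the other groups. Same-numbered libraries did not deviate together (correlations -0.05 to 0.01), so the numbers are not read as pairs; with a replicate block, 11301 genes were called in hypoxia against normoxia, 12463 with oxamate against hypoxia and 9981 with NALA added, and 9, 9 and 7 members. With the longest transcript as the length, 55 of 64 levels or shares per kb moved by more than the spread between libraries. A level is CPM over a fixed length, so another length rescales a gene by the same factor in every group. The moves of levels therefore follow from the lengths and say nothing on differences between groups. Depth limits CCNE1, at 20 to 143 counts, and CCNE2, at 35 counts in 1 NALA library.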
